A study of Canis lupus familiaris with 8 samples.

Results

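Mitochondrial import, carrier, channel and dynamics genes were examined in left ventricular RNA of control dogs and of dogs with alloxan-induced diabetes (DM dogs). The members were the probe sets of the Affymetrix Canine Genome Array that are assigned a single gene symbol matching the import translocases (TOMM and TIMM genes, SAMM50, HSPA9, PMPCA, PMPCB, OXA1L), the inner membrane solute carriers (SLC25A genes), the voltage-dependent anion channels (VDAC genes), the sideroflexins (SFXN genes), the fusion and fission genes or the matrix chaperones and proteases. This gave 79 probe sets of 48 genes, of 23836 probe sets tested and of 6540 genes with a single symbol on the array. The rule also allowed for MFN1, MFN2, LONP1, CLPP and the prohibitins, but no probe set was assigned to them by the annotation used here, so these genes were not analysed.

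The study asked how gene expression differs in the heart of dogs with type 1 diabetes. Each dog was 1 array, with 4 dogs per group among the samples and in the methods, while the series text counts more dogs in each group. The control dogs were D5, D6, D7 and D8, which received no alloxan, and the DM dogs were 0292, 0294, 1087 and 1111, which received alloxan monohydrate at 40 to 60 mg/kg intravenously and were studied 4 weeks later. All dogs were male mongrels of 23 to 27 kg by the labels, the series text and the methods give other weight ranges, ages were not given in the sources used here, and dogs of both groups had been surgically instrumented for hemodynamic measurement. Alloxan destroys pancreatic beta cells, so the model is insulin deficiency caused by a chemical and holds any other effect of the compound as well. The tissue was whole left ventricle, so a lower signal could come from fewer cells of a type or from less RNA per cell, and these cannot be told apart.

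Almost all mitochondrial proteins are made in the cytosol and enter the organelle through the TOM complex of the outer membrane. From there, TIM complexes lead them into or across the inner membrane, processing peptidase removes the targeting sequence and matrix chaperones fold the product. Anion channels of the outer membrane and carriers of the inner membrane move ATP, ADP and substrates, a traffic on which the beating heart depends, while fusion and fission proteins set the shape and number of mitochondria.

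Signals are given as log2 of the quantile normalized signal plus 16, so that 1 unit is a doubling of that sum and a value of 5 log2 stands for a normalized signal equal to the added 16. Differences are DM minus control on this scale, and they understate the change of dim probe sets. Levels of different probe sets are not comparable with each other, because probes bind with different strength. The arrays themselves differed between groups. The manufacturer's hybridization controls, which are added in fixed amount, gave a deposited signal of 13.88 ± 1.27 log2 in controls against 16.32 ± 1.05 under DM (SD, n = 4, two-sided exact permutation p = 0.0571). Control dog D8 gave 15.77, inside the DM range of 15.17 to 17.72, while the other control dogs gave 13.09 to 13.36. The 3′ minus 5′ difference of actin, a measure of RNA length, was 3.47 ± 2.97 log2 in control and 5.73 ± 1.69 in DM dogs (exact permutation p = 0.229), with the highest values in D8 (7.79) and 1111 (7.71). The groups overlapped only through D8, since D5, D6 and D7 gave 1.35 to 3.04, below the DM range of 3.59 to 7.71. Array batches were not given in the sources used here. The control samples and the DM samples carry titles of different form and separate blocks of sample numbers. Any difference in processing that follows group therefore cannot be told apart from diabetes. The part of these array measures in the results below was not tested.

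Most of these mitochondrial genes had lower signal in DM dogs, but none passed the adjusted threshold. Of the 79 probe sets, 61 had a negative difference and 18 a positive one, which is 77.2% negative against 48.1% of all probe sets. Their median difference was -0.94 log2, while the median of all probe sets was 0.06. Under the other scalings tried the members stayed below the array, with a median of -0.79 against 0.34 without quantile normalization, -0.84 against 0.02 with cyclic loess, -1.42 against -0.19 with median centring and -2.98 against -1.65 with arrays scaled to the hybridization controls. With limma and Benjamini-Hochberg adjustment over all 23836 probe sets, 0 members passed an adjusted p of 0.05, their adjusted p ranged from 0.0609 to 0.978, and 4 probe sets or 0.0168% of the array passed. At an unadjusted p of 0.05, 27 members were lower in DM dogs, against a background of 8.87% of all probe sets, and 5 were higher, against 7.84%. The count of higher members was 1 under median centring, where 4.97% of all probe sets were higher. It was 0 under scaling to the hybridization controls, where 0.0629% were. Every DM dog lay below every control dog in 21 members, where the background was 5.85%, and above in 2 members, TIMM9 and SLC25A13, where it was 4.93%. By the criteria of the methods' t-test, a nominal p of 0.01 and a 2-fold difference, 14 members were lower (2.52% of all probe sets) and 1 was higher (2.45%), and 0 of them passed after Benjamini-Hochberg adjustment. Taking 1 probe set per gene, that with the highest mean signal, 41 of 48 genes had a negative difference, 17 were lower at an unadjusted p of 0.05 (11.7% of all genes) and 1 was higher. The shares of all genes that were negative, or higher at that p, were not computed.

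**Figure D1:**
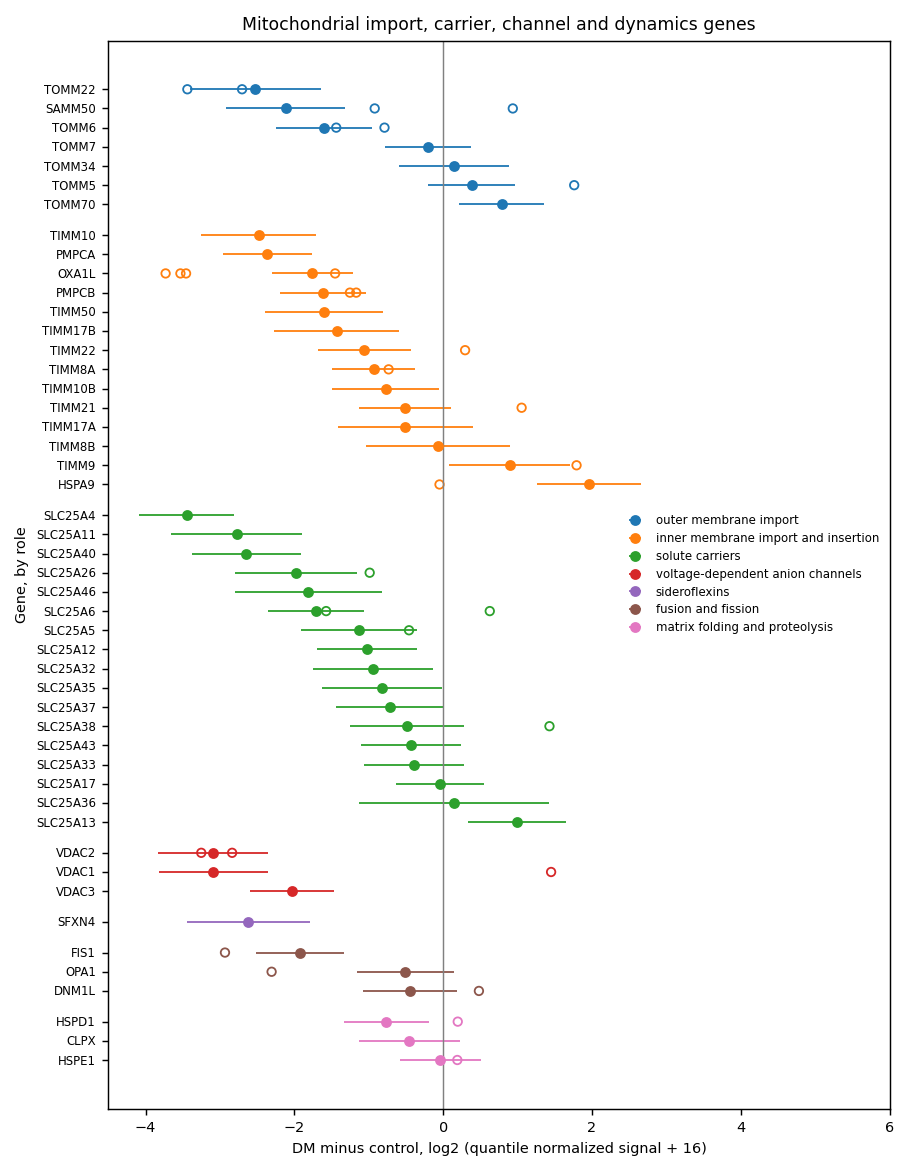
Difference between DM and control dogs for each of the 48 genes, grouped by role, with DM minus control in log2 on the horizontal axis. Filled points are the probe set with the highest mean signal, with its standard error as a bar, and open points are further probe sets of the gene. Most filled points lie left of 0, with SLC25A4 at -3.45, while HSPA9 lies farthest right at 1.96, which turns to -0.69 when arrays are scaled to the hybridization controls.

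By role, as a description with no test, the median difference was -2.96 log2 over the 6 VDAC probe sets, -1.22 over the 6 of fusion and fission, -1.06 over the 25 of inner membrane import and insertion, -0.88 over the 22 of the carriers and -0.86 over the 14 of outer membrane import. The 5 probe sets of the matrix chaperones and CLPX had a median of -0.04. With 1 probe set per gene the order of roles changed, with medians of -3.09 for the 3 VDAC genes, -0.999 for the 14 of inner membrane import and insertion, -0.95 for the 17 carriers, -0.51 for the 3 of fusion and fission, -0.46 for the 3 of the matrix and -0.20 for the 7 of outer membrane import.

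The voltage-dependent anion channels are the main pores of the outer membrane for ATP, ADP and other metabolites. Of their 6 probe sets, 5 were lower in DM dogs without overlap of the groups, with an unadjusted p below 0.05 in each. VDAC1 (1585538_at) gave 16.28, 16.49, 16.18 and 15.23 log2 in dogs D5, D6, D7 and D8 and 11.15, 12.78, 13.35 and 14.54 in dogs 0292, 0294, 1087 and 1111. All DM dogs were below all control dogs, with 1111 nearest to them, and the difference was -3.09 log2 (SE 0.73, adjusted p = 0.0877), or 8.51-fold lower. VDAC2 (1587433_s_at) gave 13.78, 14.09, 13.60 and 13.46 log2 in control dogs and 9.12, 10.23, 10.41 and 12.77 in DM dogs, each in the same order of dogs. The difference was -3.10 log2 (SE 0.74, adjusted p = 0.0884), and the other two VDAC2 probe sets gave -3.25 (1587432_at) and -2.84 (1593081_at), so all 3 pointed the same way. VDAC3 (1586441_at) gave 13.94, 13.98, 14.28 and 13.51 log2 in control and 12.04, 11.67, 11.33 and 12.54 in DM dogs, a difference of -2.03 log2 (SE 0.56, adjusted p = 0.113). Its groups did not overlap either, and its DM dogs lay closer together than those of VDAC1 and VDAC2.

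A second VDAC1 probe set went the other way. 1598316_at gave 8.59, 8.69, 8.27 and 10.19 log2 in control dogs and 9.83, 10.97, 11.03 and 9.71 in DM dogs, where D8 lay among the DM dogs and the groups overlapped. The difference was 1.45 log2 (SE 0.64, adjusted p = 0.281) with an unadjusted p of 0.0422, and it turned to -0.75 when each array was scaled to its hybridization controls. The pair of VDAC1 probe sets thus differed by 4.54 log2 in their response, and the direction of VDAC1 rests on which one is read.

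Among the solute carriers, SLC25A4, the adenine nucleotide translocase of heart and skeletal muscle that exchanges ADP for ATP, had the lowest difference. Its probe set 1604403_s_at gave 14.66, 15.00, 14.29 and 13.10 log2 in control dogs D5 to D8 and 10.70, 9.94, 11.08 and 11.56 in DM dogs 0292, 0294, 1087 and 1111. Every DM dog was below D8, the lowest control dog, and the difference was -3.45 log2 (SE 0.64, adjusted p = 0.0609), or 10.9-fold lower. The more widely expressed translocases had values nearer to control. SLC25A5 (1586669_at) was 9.82 ± 0.28 log2 (SD, n = 4) in control and 8.68 ± 1.67 in DM dogs, with overlap and a difference of -1.13 log2 (SE 0.78, adjusted p = 0.489). The dimmer SLC25A5 probe set 1604231_at gave -0.46. SLC25A6 (1601975_s_at) was 9.52 ± 0.76 in control and 7.81 ± 0.79 in DM dogs, a difference of -1.71 log2 (SE 0.64, adjusted p = 0.209), with overlap through D8 at 8.37. Of its other probe sets, 1604119_at gave -1.57 and 1592155_x_at gave 0.62, which turned to -0.42 when arrays were scaled to the hybridization controls.

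SLC25A11, the oxoglutarate carrier, exchanges oxoglutarate for malate and is one of the carriers of the malate-aspartate shuttle. Its probe set 1585137_at gave 12.24, 13.47, 13.01 and 11.33 log2 in control and 11.02, 7.43, 8.98 and 11.52 in DM dogs. The groups overlapped only through D8 and 1111, and the difference was -2.78 log2 (SE 0.88, adjusted p = 0.149). The other step of the shuttle, aspartate against glutamate, is carried by SLC25A12 and SLC25A13. SLC25A12 (1589986_s_at) ranged from 10.13 to 11.00 in control and from 7.73 to 10.33 in DM dogs, a difference of -1.03 log2 (SE 0.67, adjusted p = 0.469). SLC25A13 (1591429_at) was below 5 log2 in all control dogs, at 4.93, 4.94, 4.68 and 4.78 log2, and gave 5.12, 5.63, 4.98 and 7.57 in DM dogs. Its groups did not overlap, but the 3 lowest DM dogs lay within 1 log2 of the control dogs, and the difference of 0.99 log2 (SE 0.66, adjusted p = 0.481) had an unadjusted p of 0.159.

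SLC25A40, linked to the glutathione supply of mitochondria, gave 8.10, 8.27, 7.95 and 8.44 log2 in control dogs and 4.74, 4.82, 4.79 and 7.81 in DM dogs (1605580_at). Dogs 0292, 0294 and 1087 were below 5 log2 and 1111 was near the control dogs, a difference of -2.65 log2 (SE 0.74, adjusted p = 0.114). SLC25A26, which brings S-adenosylmethionine into the matrix, ranged from 4.81 to 8.76 in control and from 4.78 to 5.94 in DM dogs (1603896_s_at), a difference of -1.98 log2 (SE 0.82, adjusted p = 0.247). The dimmer SLC25A26 probe set 1602405_at gave -0.99. SLC25A38, the glycine carrier used for heme synthesis, had probe sets of both signs. 1598629_at gave -0.49 log2 (SE 0.76, adjusted p = 0.788) and 1595490_s_at gave 1.43 log2 (SE 0.64, adjusted p = 0.281), the latter with an unadjusted p of 0.0424 and a turn to -0.43 under scaling to the hybridization controls.

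The remaining carriers had overlapping groups and none had an unadjusted p below 0.05. SLC25A46, a carrier family protein of the outer membrane, had a difference of -1.81 log2 and ranged from 5.60 to 10.82 within the DM dogs. The folate carrier SLC25A32 gave -0.95, the iron carrier SLC25A37 gave -0.72 and the pyrimidine nucleotide carriers SLC25A33 and SLC25A36 gave -0.39 and 0.14. SLC25A36 had the widest spread of all members, from 4.76 to 11.74 in the DM dogs. SLC25A17, which sits in peroxisomes and not in mitochondria, gave -0.04, and SLC25A35 and SLC25A43 gave -0.82 and -0.44.

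**Figure D2:**
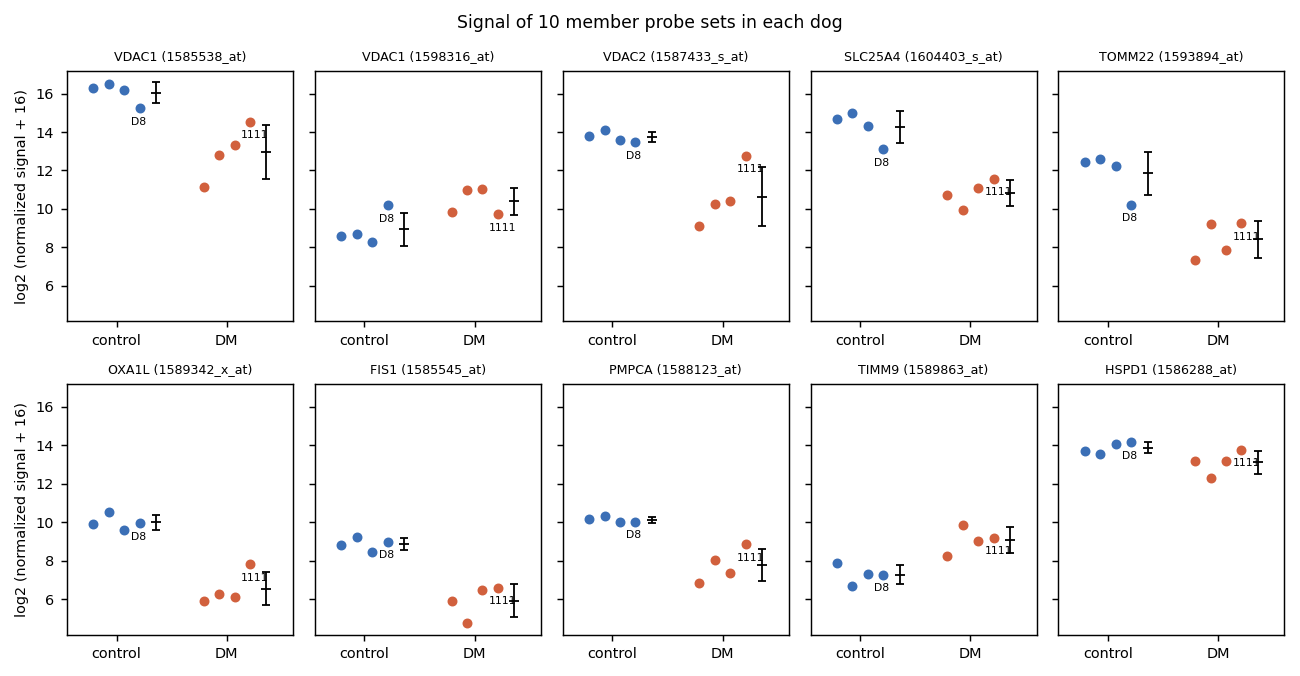
Signal of 10 probe sets in each of the 8 dogs, on a log2 axis of normalized signal plus 16, with control dogs in blue and DM dogs in orange. The black bars give the mean and SD of each group (n = 4), and D8 and 1111 are marked. In VDAC1 (1585538_at), D8 at 15.23 and 1111 at 14.54 are the dogs nearest to the other group, and TIMM9 and the second VDAC1 probe set run the opposite way, which scaling to the hybridization controls turns to -0.13 and -0.75.

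At the outer membrane, TOMM22, the central receptor of the TOM complex, was lower by all 3 of its probe sets. 1593894_at gave 12.43, 12.59, 12.22 and 10.19 log2 in control dogs and 7.34, 9.22, 7.87 and 9.24 in DM dogs. The groups did not overlap although D8 lay well below the other control dogs, and the difference was -3.44 log2 (SE 0.72, adjusted p = 0.0703). The other TOMM22 probe sets gave -2.70 log2 (SE 0.85, adjusted p = 0.147) for 1588022_s_at and -2.53 log2 (SE 0.88, adjusted p = 0.180) for 1593893_at, and their groups overlapped. SAMM50, which inserts barrel proteins such as the VDACs into the outer membrane, gave 10.32, 10.76, 10.09 and 9.76 log2 in control and 5.53, 9.04, 9.21 and 8.67 in DM dogs by 1583394_s_at. Its groups did not overlap, 0292 was far below the other DM dogs, and the difference was -2.11 log2 (SE 0.80, adjusted p = 0.211). Of the other SAMM50 probe sets, 1594728_at gave -0.92 and 1594727_at gave 0.93, which turned to -0.70 under scaling to the hybridization controls.

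The small subunits of the TOM complex had differences of both signs, and no test compared them with each other. TOMM6 (1591818_s_at) gave 12.95, 12.99, 13.61 and 13.17 log2 in control dogs and 10.02, 11.87, 11.88 and 12.54 in DM dogs, without overlap and with a difference of -1.60 log2 (SE 0.65, adjusted p = 0.238). The other TOMM6 probe sets gave -1.44 (1604981_at) and -0.79 (1591817_at), both with overlapping groups. TOMM5 (1605773_at) gave 13.30 ± 0.64 log2 (SD, n = 4) in control and 13.68 ± 0.38 in DM dogs, a difference of 0.38 log2 (SE 0.58, adjusted p = 0.783) that turned to -0.27 under median centring and -2.05 under scaling to the hybridization controls. Its second probe set 1599654_at gave 6.79, 7.79, 8.22 and 9.50 in control and 10.61, 9.73, 9.65 and 9.35 in DM dogs. D8 lay inside the DM range there, and the difference of 1.76 log2 (SE 0.67, adjusted p = 0.216), with an unadjusted p of 0.0211, turned to -0.42 under the latter scaling. TOMM7 gave -0.20, TOMM34, a cytosolic helper of import, gave 0.14, and TOMM70, the receptor for carrier proteins, gave 0.78, each with overlapping groups.

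At the inner membrane, OXA1L, the insertase that places proteins into the membrane from the matrix side, had the probe set with the lowest difference of all members, 1587993_x_at at -3.73. Its probe set 1589342_x_at gave 9.89, 10.53, 9.58 and 9.94 log2 in control dogs and 5.92, 6.27, 6.11 and 7.80 in DM dogs. No DM dog reached the lowest control dog, and the difference was -3.46 log2 (SE 0.61, adjusted p = 0.0609), or 11-fold lower, with the lowest adjusted p among the members, which SLC25A4 shared. The other OXA1L probe sets gave -3.73 (1587993_x_at), -3.53 (1585706_x_at), -1.76 (1586054_x_at) and -1.45 (1591536_at). The first 3 of these did not overlap between groups, while the last did, since D8 was at 5.06 and the other control dogs at 7.86 to 8.13. By the manufacturer's naming, a probe set ending in _x_at can also bind other transcripts, so the 4 such OXA1L probe sets may hold signal of other genes.

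PMPCA and PMPCB form the peptidase that removes targeting sequences in the matrix. PMPCA (1588123_at) gave 10.17, 10.34, 10.02 and 10.01 log2 in control dogs and 6.86, 8.02, 7.38 and 8.84 in DM dogs, without overlap and with a difference of -2.36 log2 (SE 0.60, adjusted p = 0.0936). Control dogs lay within a narrow range here, and the DM dogs were spread over a wider one. PMPCB (1593089_s_at) gave 12.49, 12.42, 12.23 and 12.29 in control and 11.05, 10.44, 9.91 and 11.56 in DM dogs, a difference of -1.62 log2 (SE 0.58, adjusted p = 0.191). Its other probe sets gave -1.25 and -1.17, so all 3 were lower, and none overlapped between groups.

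TIMM9 and TIMM10 together form a chaperone ring that escorts carrier proteins across the intermembrane space, and they had opposite signs here, though both were negative when arrays were scaled to the hybridization controls. TIMM10 (1596648_at) gave 9.09, 9.20, 9.02 and 8.79 log2 in control dogs and 5.08, 6.52, 5.69 and 8.88 in DM dogs. Only 1111 reached the control range, and the difference was -2.48 log2 (SE 0.77, adjusted p = 0.142). TIMM9 (1589863_at) gave 7.88, 6.67, 7.29 and 7.26 in control and 8.23, 9.83, 9.02 and 9.18 in DM dogs. All DM dogs were above all control dogs, a difference of 1.79 log2 (SE 0.59, adjusted p = 0.164) with an unadjusted p of 0.00977, which turned to -0.13 under scaling to the hybridization controls. The other TIMM9 probe set, 1585549_s_at, gave 0.89 log2 (SE 0.81, adjusted p = 0.614) with overlapping groups and turned to -1.39 under the same scaling.

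HSPA9, the chaperone motor that pulls proteins into the matrix, gave 10.13, 10.00, 11.11 and 12.84 log2 in control dogs and 13.24, 13.32, 12.85 and 12.50 in DM dogs by 1594547_s_at. D8 lay among the DM dogs, and the difference of 1.96 log2 (SE 0.70, adjusted p = 0.189), with an unadjusted p of 0.0147, turned to -0.69 under scaling to the hybridization controls. Its other probe set 1598204_s_at gave -0.05 log2 (SE 0.60, adjusted p = 0.974). The other TIMM probe sets had differences from -1.60 (TIMM50, a receptor of the TIM23 complex) to 1.05 (TIMM21 by the dim 1588290_at), and none had an unadjusted p below 0.05. Among them, TIMM8A (1604997_at) did not overlap between groups, with 10.90 to 11.60 in control and 9.58 to 10.53 in DM dogs and a difference of -0.94 log2 (SE 0.56, adjusted p = 0.419). The brighter TIMM21 probe set 1585256_at gave -0.51, and the second TIMM8A probe set 1595971_s_at gave -0.73. TIMM17B gave -1.43, TIMM17A gave -0.51, TIMM8B gave -0.07, TIMM10B gave -0.77, and the probe sets of TIMM22, the translocase of carrier proteins, gave -1.06 and 0.29.

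Of the fusion and fission genes, FIS1, an outer membrane protein of fission, was lower by both of its probe sets. 1585545_at gave 8.79, 9.22, 8.44 and 8.96 log2 in control dogs and 5.90, 4.73, 6.49 and 6.56 in DM dogs. The highest DM dog was well below the lowest control dog, and the difference was -2.93 log2 (SE 0.61, adjusted p = 0.0670). The brighter probe set 1585546_s_at did not overlap either, and gave -1.93 log2 (SE 0.59, adjusted p = 0.138). DNM1L, the dynamin-related protein that constricts mitochondria, had a difference of -0.44 log2 (SE 0.63, adjusted p = 0.762) by 1590142_s_at and of 0.48 log2 (SE 0.82, adjusted p = 0.809) by 1604166_at. The groups of both overlapped, and either sign turned under some settings. OPA1, which fuses the inner membrane and holds cristae closed, gave -0.51 log2 (SE 0.66, adjusted p = 0.735) by 1587655_at, which turned to 0.00085 with cyclic loess. By the dimmer 1606031_at it gave 6.94, 8.12, 7.98 and 9.19 in control and 4.71, 5.25, 4.91 and 8.13 in DM dogs. Dogs 0292, 0294 and 1087 were near 5 log2 and 1111 lay within the control range, a difference of -2.31 log2 (SE 0.81, adjusted p = 0.185).

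The matrix chaperonin HSPD1 and its lid HSPE1 were among the bright members. HSPD1 (1586288_at) gave 13.72, 13.53, 14.08 and 14.16 log2 in control and 13.17, 12.31, 13.18 and 13.77 in DM dogs. The groups overlapped, with a difference of -0.76 log2 (SE 0.57, adjusted p = 0.531). HSPE1 (1589425_x_at) gave 11.77 ± 0.27 (SD, n = 4) in control and 11.73 ± 0.39 in DM dogs, a difference of -0.04 log2 (SE 0.55, adjusted p = 0.978). Their second probe sets gave 0.19 and 0.19, and CLPX, the unfoldase of a matrix protease, gave -0.46, all with overlapping groups. SFXN4, a sideroflexin needed for assembly of respiratory complex I, was the only sideroflexin among the members. It gave 9.47, 8.96, 9.18 and 8.56 log2 in control and 8.72, 5.03, 4.78 and 7.15 in DM dogs, with a difference of -2.62 log2 (SE 0.83, adjusted p = 0.147), and only 0292 reached the control range.

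Genes that act together were compared directly by the difference between their responses within each dog, using the brightest probe set of each gene, in 9 pairs with p-values adjusted over the 9. The results hold for these probe sets alone. Further ones, such as those of VDAC1 (1.45 log2), HSPD1 (0.19) and HSPE1 (0.19), were not compared in this way. The smallest two-sided p that 4 dogs against 4 allow is 0.0286. No pair passed after adjustment, but at this floor a pair could pass only if most of the 9 pairs reached it together. The adjusted values therefore do not decide for any single pair. TIMM9 exceeded TIMM10 by 3.37 log2 in its response (SE 0.95, exact permutation p = 0.0286, adjusted 0.0644). The response of SLC25A4 minus that of SLC25A6 was -1.74 (SE 0.50, exact permutation p = 0.0286, adjusted 0.0644), and minus that of SLC25A5 it was -2.31 (SE 0.97, exact permutation p = 0.0571, adjusted 0.103). For SLC25A5 minus SLC25A6 it was 0.57 (SE 0.90, exact permutation p = 0.543, adjusted 0.611). PMPCA minus PMPCB was -0.75 (SE 0.42) and HSPD1 minus HSPE1 was -0.72 (SE 0.43), each with an exact permutation p of 0.0286 and 0.0644 after adjustment. VDAC1 and VDAC2 differed by 0.01 (SE 0.32, exact permutation p = 1), while VDAC1 minus VDAC3 was -1.06 (SE 0.71, exact permutation p = 0.171, adjusted 0.256) and VDAC2 minus VDAC3 was -1.06 (SE 0.68, exact permutation p = 0.2, adjusted 0.257).

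How far the probe sets of 1 gene agree limits these values. Of the 22 genes with several probe sets, 12 had differences of the same sign in all. In 4 genes the probe sets had both signs and lay over 2 log2 apart, namely VDAC1 (4.54), SAMM50 (3.05), SLC25A6 (2.33) and HSPA9 (2.01). No probe sequence was compared here, so which probe set reads the transcript better was not tested.

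The members are brighter than the array as a whole, with 42 of 79 in the top 20% of mean signal, and bright probe sets tended to be lower in DM dogs. Probe sets were put in 5 bins of equal size by mean signal, and the members had the lower median in each. In the brightest bin it was -1.10 log2 for members and -0.24 for all probe sets, and 18 of 42 members were lower at an unadjusted p of 0.05 where 17.3% of all probe sets were. In the next bin the medians were -1.44 and -0.37, and in the middle bin -1.43 and -0.07. In the dimmer bins, with 8 and 7 members, they were -0.16 against 0.36 and -0.44 against 0.47. These medians are a description with no test.

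**Figure D3:**
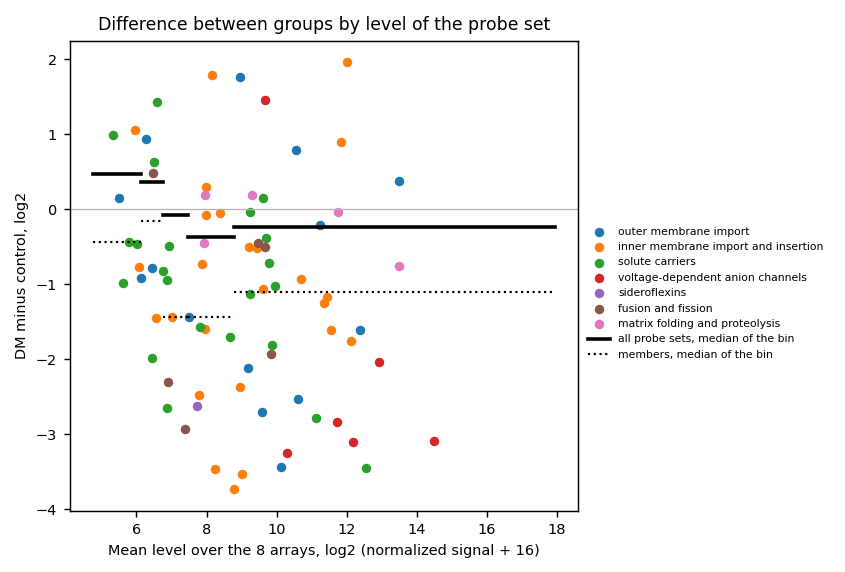
Difference between DM and control dogs in log2 (vertical axis) against the mean level of the probe set over the 8 arrays (horizontal axis, log2 of normalized signal plus 16) for the 79 members, coloured by role. Solid lines are the median of all probe sets in each of 5 bins of level and dotted lines that of the members. The dotted line lies below the solid one in all bins, at -1.10 against -0.24 in the brightest.

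Genes of the same processes that the member rule leaves out were also mostly lower in DM dogs. Of 53 such genes listed, 30 were measured by 58 probe sets, of which 48 had a negative difference (48.1% of all probe sets). At an unadjusted p of 0.05, 15 were lower (8.87% of all probe sets) and 1 was higher (7.84%), and 0 passed by limma after adjustment. Their median was -0.83 log2. SMDT1, a subunit of the calcium uniporter, gave 10.85, 11.04, 11.21 and 10.22 log2 in control dogs and 4.99, 5.42, 5.75 and 9.93 in DM dogs. Only 1111 was near the control dogs, and the difference was -4.31 log2 (SE 0.95, adjusted p = 0.0772). MPC2, which with MPC1 forms the pyruvate carrier, gave 12.34, 12.82, 12.48 and 10.94 in control and 7.11, 9.74, 8.95 and 10.44 in DM dogs, a difference of -3.09 log2 (SE 0.77, adjusted p = 0.0913), and MPC1 gave -1.09 log2 (SE 0.56, adjusted p = 0.348). SPG7, a subunit of an inner membrane protease, gave -3.31 log2 (SE 0.58, adjusted p = 0.0609) by 1583921_at and -1.32 log2 (SE 0.77, adjusted p = 0.414) by 1583920_at. PAM16, of the import motor, gave -2.96, -0.42 and 1.42 by its 3 probe sets, and DNAJC19, another motor subunit, gave 0.53 log2 (SE 0.56, adjusted p = 0.671). PPARGC1A, a coactivator of mitochondrial gene expression, gave -1.80 and -1.17. BNIP3, a receptor for the removal of mitochondria, was lower by 4 probe sets and higher by 1, from -3.22 to 1.77.

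Marker genes of cardiomyocytes, which hold most mitochondria of the ventricle, were lower in DM dogs as well. All 9 measured of 12 listed had a negative difference, 7 were lower at an unadjusted p of 0.05 (11.7% of all genes), and the median was -2.00 log2. Their summed signal was 18.06 to 19.19 log2 in control dogs and 16.95 to 17.58 in DM dogs. MYH7, the main myosin of the ventricle, had a difference of -0.57 log2 (SE 0.54, adjusted p = 0.628). Its groups did not overlap, at 16.78 to 16.88 in control and 15.81 to 16.72 in DM dogs. TNNI3, a troponin subunit, had a difference of -5.78. Of 6 macrophage and monocyte markers, all measured, SPP1 and CD68 were higher at an unadjusted p of 0.05. The share of all probe sets higher at that p was 7.84%, and the share of all genes was not computed. CD14 and CSF1R had negative differences of -1.10 and -1.20. The summed signal of the 6 was 11.08 to 12.34 in control and 12.85 to 14.64 in DM dogs. SPP1 weighs heavily in this sum, at 8.67 to 9.72 in control and 11.96 to 13.99 in DM dogs. CD163, also bright, overlapped between groups, at 9.56 to 11.33 in control and 9.30 to 12.98 in DM dogs. The summed signals of the endothelial, fibroblast, smooth muscle, leukocyte and adipocyte markers overlapped between groups. Their median differences were nonetheless negative, at -0.74, -0.72, -0.93, -0.16 and -0.30 log2 in that order. Negative differences were found in 3 of 4 endothelial, 3 of 4 fibroblast and 2 of 3 smooth muscle markers. At an unadjusted p of 0.05, 1 fibroblast and 1 smooth muscle marker were lower (11.7% of all genes). The part of the cell markers in the mitochondrial values was not tested.

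The dogs did not contribute evenly. Counted from the mean of the 8 arrays, the median of the 79 members was 0.64, 0.73, 0.58 and 0.46 log2 in control dogs D5, D6, D7 and D8, and -0.68, -0.46, -0.83 and 0.10 in DM dogs 0292, 0294, 1087 and 1111. The groups did not overlap, and 1111 stood closest to the control dogs. Among the 21 members lower in every DM dog, D8 was the lowest control dog in 13 and 1111 the highest DM dog in 18. Values below 5 log2 occurred in 2 to 4 members of each control array and in 5, 6, 6 and 13 members of the DM arrays, the last in 1087, while 11.1% of all probe sets lay there in every array. Over the members, the mean correlation of an array with its own group was 0.867 to 0.936 in control dogs, lowest in D8, and 0.658 to 0.776 in DM dogs, lowest in 0292.

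Without D8, 5 members passed the adjusted threshold by limma, when 323 probe sets of the whole array did, and without 1111 it was 14 members and 472 probe sets. In the first case these were TOMM22 probe sets 1588022_s_at and 1593894_at, OXA1L, SLC25A26 and SLC25A4. In the second they were VDAC1, all 3 probe sets of VDAC2, 3 of OXA1L, and 1 each of FIS1, PMPCA, TOMM22, TIMM10, SLC25A4, SLC25A40 and OPA1. Groups did not overlap in 33 lower members without D8, when 11.6% of all probe sets were so, and in 27 without 1111, when 10.1% were. The count lower at an unadjusted p of 0.05 was 30 without D8, when 9.58% of all probe sets were lower, and 31 without 1111, when 10.6% were. When any of the other 6 dogs was left out, no member passed after adjustment.

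**Figure D4:**
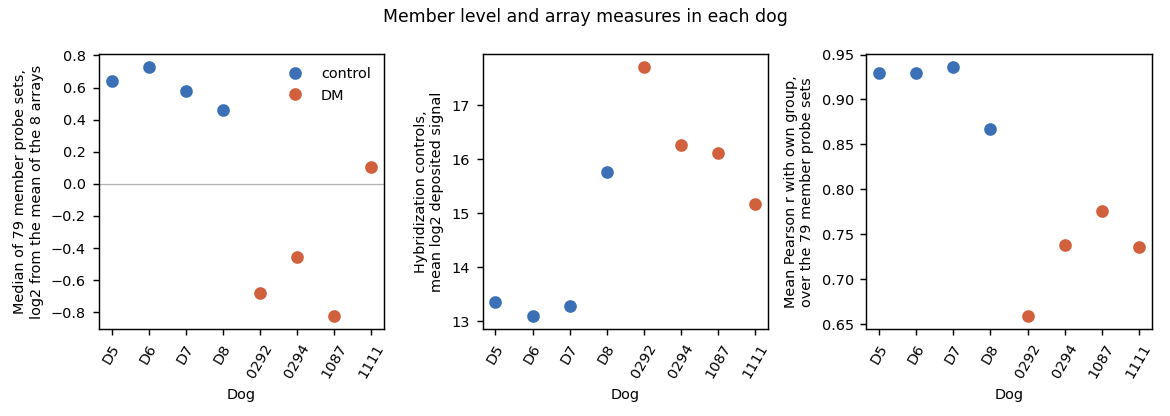
Values of each dog, control in blue and DM in orange. The left panel gives the median of the 79 members as log2 from the mean of the 8 arrays, the middle panel the level of the hybridization controls (log2 of deposited signal, averaged), and the right panel the mean Pearson correlation with the own group over the members. Dog 1111 at 0.10 lies nearest the control dogs in the left panel, and D8 at 15.77 lies within the DM range in the middle panel.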

How the data were processed

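Left ventricular RNA of 8 dogs was hybridized to Affymetrix Canine Genome Arrays, 1 array per dog, with 4 control and 4 DM dogs. The authors summarised the scanned arrays with MAS 5.0, and the deposited values are signal intensities on a linear scale, each array having been brought to a common 2% trimmed mean of 500.04 to 500.13. The methods also name RMA normalization, which was not applied to the values used here. From these intensities the 77 control probe sets of the manufacturer were left out, the other 23836 were quantile normalized, 16 was added and log2 was taken. Groups were compared with limma 3.58.1 in R 4.3.3 (lmFit and eBayes, group alone), with Benjamini-Hochberg adjustment over all 23836 probe sets and a threshold of 0.05. The scripts were run on simulated data of narrower spread than these arrays, as a test of the code alone. Plots were made with matplotlib 3.10.9. With 4 arrays per group, their number limits the precision. Dogs are separate animals and were taken as replicates; no 2 arrays held identical values.

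Gene symbols came from the platform annotation given for the array. Of the probe sets, 10549 had 1 symbol, 138 several and 13149 none listed, and an update of symbols through gene identifiers changed 0 member symbols. Members, roles, marker lists and other genes of the pathway were chosen with earlier results of these data known. The genes named were, by rule, the 3 with the largest difference in each role, those whose probe sets all lacked overlap, the 5 brightest, those higher at an unadjusted p of 0.05, those with probe sets of both signs over 2 log2 apart, and TOMM22, OXA1L and SLC25A11, which gave 26 genes with 52 probe sets. SLC25A12, SLC25A26, SLC25A5 and the remaining members were described in addition, after their values were seen. Alternatives were other scalings (none, median centring, cyclic loess, hybridization controls), offsets of 0 and 64, leaving out the dimmest 20% of probe sets, the methods' t-test, the mean over the probe sets of a gene and leaving out each dog. Leaving out D8 and 0292 together and reading the methods' t-test at the limma thresholds were added after the data were seen.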

Additional observations from a re-analysis of the deposited data

Results flagged for a closer look

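Among the named probe sets, 1 dog stood far from the other 3 of its group in 8 of 104 groups of 4, by the ratio of its gap to the whole range, where chance would give about 1 in 20 of independent groups. The 104 groups share the same 8 dogs, and some are probe sets of 1 gene, so they are not independent. Control dog D8 was the low dog in 5 of the 8. It gave 8.55 log2 for TOMM22 by 1588022_s_at (other control dogs 11.48 to 12.01), 10.19 for TOMM22 by 1593894_at (12.22 to 12.59), 5.06 for OXA1L by 1591536_at (7.86 to 8.13), 8.37 for SLC25A6 by 1601975_s_at (9.84 to 9.98) and 7.30 for HSPA9 by 1598204_s_at (8.60 to 8.87). DM dog 1111 was the high dog in 2, with 7.81 for SLC25A40 by 1605580_at (other DM dogs 4.74 to 4.82) and 8.13 for OPA1 by 1606031_at (4.71 to 5.25). DM dog 0292 was low for SAMM50 by 1583394_s_at, at 5.53 (8.67 to 9.21).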

How the results depend on the processing

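The number of members past the adjusted threshold, 0 as reported, was 10 with median centring, 1 with cyclic loess, 56 with scaling to the hybridization controls, 12 with an offset of 64, 9 without D8 and 0292, 0 by the methods' t-test and 0 to 14 when 1 dog was left out. Over the whole array, where 4 probe sets passed, it was 0 without quantile normalization or without an offset, 353 with median centring, 24 with cyclic loess, 7672 with the hybridization controls, 445 with an offset of 64, 955 without D8 and 0292, 22 by the methods' t-test and 0 to 472 with 1 dog left out. Members lower at an unadjusted p of 0.05 numbered 62 with scaling to the hybridization controls, where 45.2% of all probe sets were lower, 26 by the methods' t-test, and genes 42 with that scaling. The share of all genes under that scaling, and of all probe sets by the methods' t-test at this p, was not computed. Members higher at an unadjusted p of 0.05 numbered 1 with median centring (4.97% of all probe sets) and 0 with the hybridization controls (0.0629%). They numbered 6 by the methods' t-test and 1 to 6 with 1 dog left out, where 5.01% to 9.72% of all probe sets were higher. The member median was -1.42 with median centring and -2.98 with the hybridization controls. Members lower without overlap numbered 35 without D8 and 0292, where 15.3% of all probe sets were so, and 21 to 33 with 1 dog left out, where 6.46% to 11.6% were. With other scalings they numbered 16 with median centring (5.5% of all probe sets) and 20 with cyclic loess (5.12%). The count was 25 without quantile normalization (5.04%) and 25 with the hybridization controls (16.8%). At the methods' own criteria, a nominal p of 0.01 and a 2-fold difference with no adjustment, 1184 probe sets of the array and 15 members passed, 14 lower and 1 higher. The methods' t-test at the other thresholds was added after the data were seen. The cause of these changes was not tested.

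Of the 52 named probe sets, none changed sign with an offset of 0 or 64, with the dim probe sets left out or without 1111. Scaling to the hybridization controls turned 12, namely DNM1L 1604166_at to -1.30, HSPA9 1594547_s_at to -0.69, TIMM9 1585549_s_at and 1589863_at to -1.39 and -0.13, HSPD1 1588907_at to -2.26, HSPE1 1588742_at to -1.62, SAMM50 1594727_at to -0.70, TOMM5 1599654_at and 1605773_at to -0.42 and -2.05, SLC25A38 1595490_s_at to -0.43, SLC25A6 1592155_x_at to -0.42 and VDAC1 1598316_at to -0.75. Median centring turned HSPD1 1588907_at to -0.53 and TOMM5 1605773_at to -0.27. Without quantile normalization HSPA9 1598204_s_at was 0.24 and CLPX 0.051, and with cyclic loess DNM1L 1590142_s_at was 0.080, OPA1 1587655_at 0.00085 and HSPA9 1598204_s_at 0.44. With 1 dog left out, 7 probe sets took both signs: DNM1L 1604166_at ranged from -0.10 to 1.16, HSPA9 1598204_s_at from -0.43 to 0.11, CLPX from -0.85 to 0.094, HSPD1 1588907_at from -0.50 to 0.84, HSPE1 1588742_at from -0.17 to 0.86, HSPE1 1589425_x_at from -0.19 to 0.090 and SLC25A38 1598629_at from -0.87 to 0.099. Without D8 and 0292 together, DNM1L gave 0.21 and -0.44 by its 2 probe sets, OPA1 1587655_at 0.20, CLPX 0.36, HSPD1 1588907_at -0.33, HSPE1 1589425_x_at 0.21 and SLC25A38 1598629_at 0.40. No paired analysis was possible because the 2 groups share no replicate number.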
